A study of Mus musculus with 2 samples.

Results

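Red blood cells were taken from single-cell libraries of mouse eye cups as the barcodes whose UMIs came to at least 20% from the adult globin genes Hba-a1, Hba-a2, Hbb-bs and Hbb-bt. A UMI is a molecular tag that marks 1 captured transcript, and a barcode marks 1 droplet. Barcodes needed at least 200 genes and at most 15% mitochondrial UMIs. The rule found 231 barcodes, 139 of 14131 kept barcodes in the control library and 92 of 12027 in the mutant library. Globin levels chose these barcodes, so every globin value below describes the choice and was not tested. The name stands for the rule, and the data do not bear it out evenly. Genes of erythroid lists made up 18.8% (control) and 20.1% (mutant) of non-globin UMIs in barcodes with 90 to 100% globin, but 1.10% and 0.884% in the 56 control and 16 mutant barcodes with 20 to 50% globin, nearer to the 0.655% and 0.632% of all other kept barcodes.

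Both libraries were made from eye cups at postnatal day 0, with cornea, lens and optic nerve removed, and each library pooled 3 eye cups. The control library was Myrf fl/fl and the mutant library was Rx>cre Myrf fl/fl, so both carried floxed Myrf alleles, and the mutant also carried a cre transgene that acts in the early eye field. Myrf, the targeted gene, codes for a transcription factor held in membranes, and the study asked what its loss does to the developing eye. There was 1 library per genotype, so no test between genotypes was possible, and the 95% intervals given here hold only counting error, since animals and libraries were not replicated. The pooled animals were not separated by the labels. Kept barcodes outside the globin rule, called other barcodes below, had a median of 4230 UMIs and 1934 genes for the control (n = 13992) and 4980 UMIs and 2199 genes for the mutant (n = 11935). The libraries shared 58 kept barcode sequences, of which 0 were red blood cells. Myrf itself had 882 UMIs in the other barcodes of the control and 129 in those of the mutant, or 11.4 and 1.72 per 1000000 non-globin UMIs. Red blood cells of the control held 1 UMI of it and those of the mutant 0. Whether its 3′ tag lies inside the deleted part was not tested.

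Red blood cells carry oxygen on hemoglobin, which is assembled from alpha and beta globin chains around heme. Mouse red blood cells of the yolk sac use embryonic chains (Hba-x, Hbb-y and Hbb-bh1), while those made later in the liver and bone marrow use Hba-a1, Hba-a2, Hbb-bs and Hbb-bt. Developing red blood cells produce heme, expel the nucleus, become reticulocytes, and then clear mitochondria, ribosomes and most RNA.

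The adult globins sit in a pair of clusters on GRCm38, which is the build of the deposited counts. Positions are from GENCODE release M21. Hbb-bs (ENSMUSG00000052305) lies at chr7:103826534-103828096 and Hbb-bt (ENSMUSG00000073940) at chr7:103812524-103813996, both on the minus strand. Hba-a1 (ENSMUSG00000069919) lies at chr11:32283511-32284465 and Hba-a2 (ENSMUSG00000069917) at chr11:32296489-32297298, both on the plus strand. The 120 bases before the RefSeq start of each gene (RefSeq promoter table, GRCm38.p6) are shown because these genes made up nearly all the globin measured, with that of embryonic Hbb-y for comparison, since it was close to absent. Capitals mark the classical boxes of globin promoters, searched on both strands by the letters CACCC for the erythroid box, by the letters CCAAT for the box upstream of the start and by the letters TATAA for the box next to it. Adjoining matches run together. RefSeq and GENCODE place the gene starts differently. By the GENCODE bounds above, the windows of Hba-a1 and Hbb-bs lie inside these genes, and those of Hbb-bt and Hba-a2 reach into theirs.
Hbb-bs, chr7:103827929-103828048, minus strand: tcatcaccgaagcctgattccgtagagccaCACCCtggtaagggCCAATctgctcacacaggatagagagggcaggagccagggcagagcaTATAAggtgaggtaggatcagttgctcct
Hbb-bt, chr7:103813924-103814043, minus strand: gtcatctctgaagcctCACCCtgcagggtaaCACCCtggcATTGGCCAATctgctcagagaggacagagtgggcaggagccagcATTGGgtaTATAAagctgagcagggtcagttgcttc
Hba-a1, chr11:32283552-32283671, plus strand: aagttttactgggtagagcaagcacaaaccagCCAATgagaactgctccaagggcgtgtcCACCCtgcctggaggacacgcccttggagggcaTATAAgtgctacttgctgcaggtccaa
Hba-a2, chr11:32296372-32296491, plus strand: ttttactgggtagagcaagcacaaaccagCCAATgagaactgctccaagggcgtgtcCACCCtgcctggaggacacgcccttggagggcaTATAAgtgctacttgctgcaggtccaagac
Hbb-y, chr7:103853208-103853327, minus strand: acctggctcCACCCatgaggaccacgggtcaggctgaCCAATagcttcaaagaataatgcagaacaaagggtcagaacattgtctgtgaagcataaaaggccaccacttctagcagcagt

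The promoters of Hbb-bs, Hbb-bt, Hba-a1 and Hba-a2 held all of these motifs, while that of Hbb-y held no TATAA within its 120 bases. Embryonic Hba-x, whose window is not printed, held TATAA 28 bases before its start and CACCC 95 bases before it, but no CCAAT. The lack of TATAA was thus not shared by these embryonic genes. Among all 32851 promoters of the same length in the table, CACCC was found in 31.7%, CCAAT in 21.3%, TATAA in 11.8% and all 3 together in 0.688%. The Hba-a1 and Hba-a2 windows were the same over all 117 aligned bases, being offset by their annotated starts. The Hbb-bs and Hbb-bt windows shared 77.1% of 118 aligned bases. In Hbb-bs, CACCC began 90 bases and CCAAT 76 bases before the start, and in Hbb-bt the copies nearest to these began 89 and 75 bases before it. Hbb-bt held a further CACCC 104 bases before its start and copies of CCAAT on the opposite strand.

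The transcripts set how well the genes can be told apart by 3′ tags. In GENCODE, the coding parts of Hba-a1 and Hba-a2 differ at 1 of 429 bases, and their annotated 3′ untranslated parts, 74 and 90 bases long, are the same over the 74 that both have. Counts of Hba-a1 against Hba-a2 are therefore uncertain. The coding parts of Hbb-bs and Hbb-bt differ at 1 of 444 bases, but their 3′ untranslated parts are 72.9% identical over 129 aligned bases, with 35 differing bases.

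Barcodes of the rule were 0.984% of kept barcodes in the control (interval 0.828 to 1.16%) and 0.765% in the mutant (0.617 to 0.937%). This order turned when the threshold was raised to 50% globin, at 0.587% in the control and 0.632% in the mutant. The red blood cells held 96.2% (control) and 97.8% (mutant) of the adult globin UMIs of kept barcodes, in 1.36% and 1.28% of all kept UMIs. Just inside the threshold, globin made up 20.6%, 20.9% and 21.0% of UMIs for the control and 21.9%, 24.1% and 26.0% for the mutant. Just outside it, the values were 19.2%, 19.3% and 19.5% in the control and 14.5%, 15.5% and 18.7% in the mutant. A globin UMI was present in 53.9% of other barcodes in the control and 55.2% in the mutant, at a median of 0.00892% and 0.0104% of their UMIs. Between 1% and 20% globin lay 70 other barcodes of the control and 20 of the mutant.

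The minimum of 200 genes removed globin-rich barcodes. In the control 36 barcodes with at least 20% globin had fewer than 200 genes, and in the mutant 48, and these were all the barcodes under 200 genes in each library. Their median depth was 1449.5 UMIs (control) and 1700 UMIs (mutant), of which 266.5 and 221 were not globin. Alas2, the first enzyme of heme synthesis in red blood cells, had a UMI in 18 of the 36 and 27 of the 48. Counting them, the share came to 1.24% in the control and 1.16% in the mutant.

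**Figure D1:**
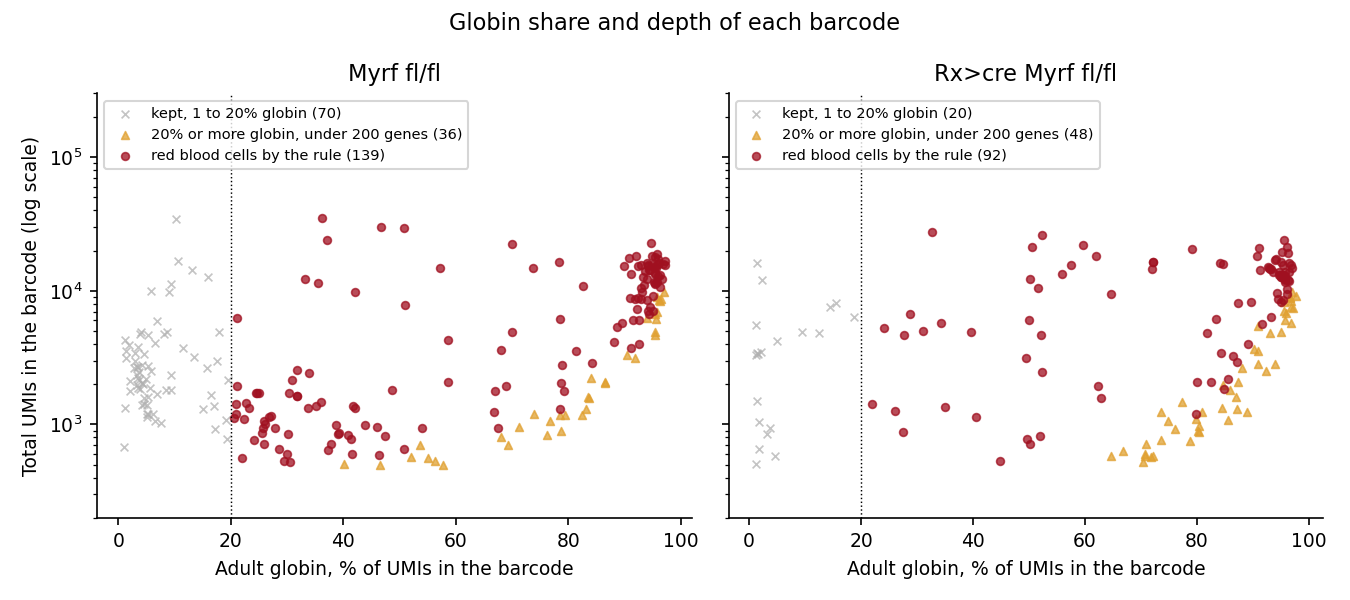
Each point is a barcode, with the adult globin share of its UMIs in percent on the x axis and its total UMIs on a log scale on the y axis, for Myrf fl/fl (left) and Rx>cre Myrf fl/fl (right). Circles are the 139 and 92 red blood cells, triangles the 36 and 48 barcodes with under 200 genes, crosses the 70 and 20 other barcodes with 1 to 20% globin. The densest group lies above 90% globin and 10000 UMIs, and the control has more points between 20 and 50%.

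Globin share spread from 20.6 to 97.2% of UMIs in the control and from 21.9 to 97.0% in the mutant, with medians of 70.1% and 86.8%. The barcodes were described in 3 bands of globin share, whose edges were chosen after the values were seen. From 90 to 100% globin lay 55 control barcodes (0.389% of kept barcodes, 0.293 to 0.506%) and 42 mutant barcodes (0.349%, 0.252 to 0.472%). From 50 to 90% lay 28 control and 34 mutant barcodes. From 20 to 50% lay 56 control barcodes (0.396%, 0.299 to 0.514%) and 16 mutant barcodes (0.133%, 0.0761 to 0.216%). The band with the least globin thus had the widest gap in share between these 2 libraries, which is a description without replicate.

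Depth followed the bands. Barcodes with 90 to 100% globin had medians of 13112 (control) and 13889 UMIs (mutant), but only 656 and 624 of these were not globin. They held a median of 290 and 296.5 genes, against 1934 and 2199 in other barcodes. The 20 to 50% band had medians of 1152.5 (control) and 3916 UMIs (mutant), of which 842 and 2270 were not globin. Mutant barcodes of that band were thus the deeper ones. When each barcode was thinned at random to 300 non-globin UMIs, the 90 to 100% band held a median of 167 genes in the control and 165.5 in the mutant. The same thinning left 241 and 240 genes in the 20 to 50% band and 247 and 250 in other barcodes. The few genes of globin-rich barcodes were therefore present at equal non-globin depth too, while the 20 to 50% band lay near the other barcodes. Thinning left out 2 control and 3 mutant red blood cells that were too shallow. Mitochondrial transcripts were 4.19% of non-globin UMIs in red blood cells of the control and 3.51% in the mutant, against 3.87% and 3.44% in other barcodes.

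Hbb-bs led the globins in both libraries. Of all adult globin UMIs in the red blood cells, Hbb-bs gave 58.1% (496736 UMIs) for the control and 56.9% (449008 UMIs) for the mutant. Hba-a1 gave 17.4% (148932 UMIs) and 17.2% (136170 UMIs), and Hba-a2 gave 11.8% (101159 UMIs) and 11.7% (92583 UMIs). Hbb-bt gave 12.7% (108810 UMIs) and 14.2% (111847 UMIs). All 4 shares were within 2 percentage points between the libraries. Globin made up 80.03% of all UMIs in red blood cells of the control and 81.2% in the mutant.

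Alpha chains were 29.2% of adult globin UMIs in the control (interval 29.1 to 29.3%) and 29.0% in the mutant (28.9 to 29.1%). Beta UMIs were thus 2.42 times alpha UMIs for the control and 2.45 times for the mutant. These are captured 3′ tags, and different genes can be captured with different efficiency. Hba-a1 and Hba-a2 are nearly the same in sequence. Whether tags that match both were counted was not tested, so the alpha share is uncertain as a measure of composition. Across single barcodes with 90 to 100% globin the alpha share had a median of 28.9% (control) and 28.4% (mutant), with an SD of 3.59 and 3.39 percentage points. Counting error alone would give an SD of 0.450 and 0.413 points. The spread was wider elsewhere, with an SD of 8.37 and 12.2 points at 20 to 50% globin, 9.91 and 10.7 points at 50 to 90%, and 7.31 and 8.54 points over all red blood cells. Hba-a1 was 59.6% (control) and 59.5% (mutant) of alpha UMIs, with a barcode SD of 2.55 and 2.26 points in that band against 0.915 and 0.837 points from counting.

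Hbb-bt varied between barcodes. It made up 18.0% (17.9 to 18.1%) of beta UMIs for the control and 19.9% (19.8 to 20.05%) for the mutant over all red blood cells. The median over barcodes was lower, 8.07% for the control and 15.6% for the mutant, and shallow barcodes had little Hbb-bt. Within the 90 to 100% band it ran from 0.593 to 30.4% in the control, with a median of 19.2%, and from 1.56 to 29.4% in the mutant, with a median of 22.1%. The SD over these barcodes was 7.72 and 7.59 points, against 0.462 and 0.444 points from counting.

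Hbb-bt share and depth moved together. Red blood cells with 10000 or more UMIs had a median Hbb-bt share of beta of 21.0% in the control (n = 51) and 22.2% in the mutant (n = 50), and 4 in each library were under 10%. Those with 2000 to 10000 UMIs had medians of 4.10% (n = 34) and 4.03% (n = 29), with 30 and 20 under 10%. Those under 2000 UMIs had medians of 5.53% (n = 54) and 2.66% (n = 13). The globin-rich barcodes under 200 genes were like these, at 2.95% in the control and 3.62% in the mutant. In each of these depth groups of red blood cells the medians of the libraries lay within 3 points of each other. The summed shares were 6.34% (control) and 5.81% (mutant) under 2000 UMIs, 6.51% and 10.6% from 2000 to 10000 UMIs and 21.0% and 21.7% from 10000 UMIs. In the band with 90 to 100% globin they were 19.05% and 21.4%. The alpha share had medians between 28.1 and 30.1% in all of these depth groups of red blood cells, in both libraries. The depth edges were chosen after the values were seen.

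Within the 90 to 100% band, Spearman's rho between Hbb-bt share of beta and total UMIs was 0.78 in the control (n = 55) and 0.77 in the mutant (n = 42). With the share of non-globin UMIs from 6 lists of erythroid genes it was 0.65 and 0.52. The alpha share against the same erythroid share gave -0.17 and -0.40. These barcodes share a library and globin UMIs are most of their depth, so the values describe the barcodes and carry no p-value.

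**Figure D2:**
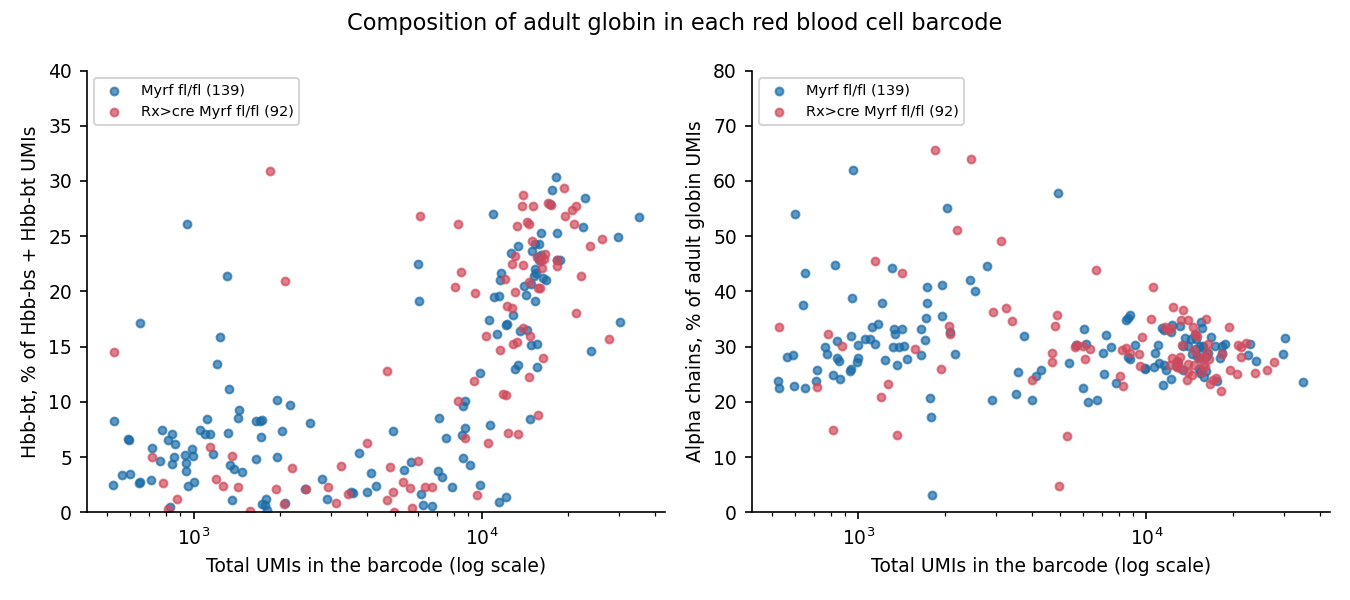
Each point is a red blood cell barcode, with its total UMIs on a log x axis, and on the y axis the Hbb-bt share of beta globin UMIs (left) or the alpha share of adult globin UMIs (right), in percent. The Hbb-bt share is mostly under 10% below 10000 UMIs and mostly above 15% beyond it in both libraries, while the alpha share has medians near 29% and spreads more widely below 10000 UMIs.

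Embryonic globins were at or near 0. Hba-x, Hbb-bh1 and Hbb-bh2 had 0 UMIs in the red blood cells of both libraries, and Hbb-y had 0 (control) and 1 (mutant). A count of 0 among the adult and embryonic globin UMIs of the control allows a share of up to 0.000351%. The 1 UMI of the mutant was 0.000127%, with an upper bound of 0.000706%. The theta globins, minor members of the alpha cluster, had a few UMIs. Hbq1a had 8 (control) and 5 (mutant), and Hbq1b had 6 and 7, spread over 9 control and 10 mutant barcodes.

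The remaining transcripts, those not from globin genes, came to 213532 control and 182502 mutant UMIs. Levels below are in CPM, counts per 1000000 non-globin UMIs of the same barcodes. Among the 1181 genes with at least 20 UMIs in red blood cells of each library, 41 (3.47%) were at least 5-fold higher than in other barcodes of both libraries, and the median fold was 0.877 in the control and 0.920 in the mutant. Of the 69 genes of the erythroid lists in the feature list, 22 were measured at that depth, and 17 of these 22 were at least 5-fold higher in both libraries. This minimum is set in the red blood cells, so a gene scarce elsewhere could pass only by being high there, and counts of measured genes are a description only. Of the 19 measured genes from lists of division and of other cell types, 0 were. The erythroid lists together gave 4.71% (control) and 5.22% (mutant) of non-globin UMIs, against 0.655% and 0.632% in other barcodes. At a threshold of 50% globin this order turned, to 9.28% and 6.88%. Within the bands of that set the mutant was not lower, with 2.82% (control) and 2.88% (mutant) at 50 to 90% globin and 18.8% and 20.1% at 90 to 100%. The lower of these bands held 56151 control and 101308 mutant non-globin UMIs and the upper 38052 and 30633, so the pooled shares weigh the bands differently.

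Heme synthesis was represented by its first and last steps. Alas2 stood at 5081 CPM in the control (4783 to 5393, 1085 UMIs in 92 barcodes) and 5666 in the mutant (5326 to 6022, 1034 UMIs in 73 barcodes). In other barcodes it had 52 and 27 UMIs in all, which made it 7586-fold (5742 to 10222) and 15724-fold (10743 to 23977) higher in red blood cells. Fech, which inserts iron into the ring, was at 726 CPM in the control and 723 in the mutant, 39.2-fold and 39.5-fold above other barcodes. The other 6 genes of the list had between 4 and 12 control UMIs and between 0 and 21 mutant UMIs, so the middle steps of the pathway were barely captured.

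Of 9 genes in the iron list, 3 were measured and 1 was at least 5-fold higher in both libraries. This was Slc25a37, the importer of iron into mitochondria, which was 82.5-fold higher than in other barcodes of the control and 99.2-fold higher in the mutant. Ftl1, the ferritin light chain, had 2354 and 2187 UMIs and was 4.84-fold and 5.76-fold higher. Fth1, the ferritin heavy chain, had 896 and 860 UMIs and was 2.94-fold and 3.71-fold higher. Tfrc, the transferrin receptor by which red blood cell precursors take up iron, had 6 UMIs in each library, and Slc40a1, the iron exporter, had 0.

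Of 16 membrane and skeleton genes, 3 had enough UMIs to be measured, and these were at least 5-fold higher in both libraries. Slc4a1, the anion exchanger of the membrane, had 31 control and 24 mutant UMIs, against 2 and 7 in all other barcodes, a ratio of 5635 (1434 to 48593) and 1408 (588 to 3869). Epb41, which ties the skeleton to the membrane, was 7.03-fold and 6.88-fold higher. Sptb, a spectrin gene, had 4 and 2 UMIs, and Ank1, an ankyrin gene, had 4 and 1.

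Of 9 genes for oxygen release and protection from oxidation, 6 were measured and 3 of these were at least 5-fold higher in both libraries. Bpgm, whose product makes the phosphate compound that loosens oxygen from hemoglobin, stood at 3667 CPM in the control and 4088 in the mutant, 84.4-fold and 84.0-fold above other barcodes. Blvrb, a heme breakdown enzyme, was 14.95-fold and 30.4-fold higher, and Gpx1, a glutathione peroxidase, 13.0-fold and 11.7-fold. Prdx2, a peroxiredoxin abundant in red blood cells, was 2.12-fold and 2.34-fold higher. Car2, a carbonic anhydrase, was 5.17-fold higher in the control but 2.09-fold in the mutant, and a single control barcode held 49.7% of its UMIs there. Car1 and Pklr, which serve mature red blood cells, had 0 UMIs in both libraries.

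Of 15 late maturation genes in the feature list, 8 had enough UMIs to be measured, and these were at least 5-fold higher in both libraries. Mkrn1, a ubiquitin ligase, had 1035 control and 1069 mutant UMIs and was 63.6-fold and 66.7-fold higher. Ube2l6, a conjugating enzyme, was 110-fold and 174-fold higher. Isg20, an RNA exonuclease, was 811-fold and 1344-fold higher. Bnip3l, which marks mitochondria for removal in reticulocytes, was 7.01-fold and 6.03-fold higher, and Gabarapl2, of the autophagy machinery, 6.51-fold and 6.41-fold. Fam46c was 119.8-fold and 133.7-fold higher and Ube2o 12.6-fold and 18.1-fold.

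The regulators that drive the earlier program were near 0. Gata1 had 1 control UMI and 0 mutant UMIs, Klf1 had 0 and 1, and Epor, Gfi1b and Sox6 had 0 in both. None of the 12 regulators reached 20 UMIs in both libraries. Together they had 43 control and 23 mutant UMIs, or 0.0201% and 0.0126% of non-globin UMIs. In other barcodes these shares were 0.0102% and 0.00949%. Lmo2 had 28 control and 5 mutant UMIs, with 57.1% of the control UMIs in a single barcode. Over all red blood cells the division list was 0.120% (control) and 0.163% (mutant) of non-globin UMIs, below the 0.166% and 0.191% of other barcodes. From the lowest to the highest band of globin it was 0.0964%, 0.196% and 0.0815% in the control and 0.166%, 0.173% and 0.127% in the mutant. Mki67, a marker of cycling cells, had 19 and 24 UMIs.

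Several genes outside the lists were among the 20 highest by fold over other barcodes. Tspo2, an erythroid relative of a mitochondrial transport protein, had 50 control and 38 mutant UMIs against 1 and 2 in all other barcodes, a ratio of 18177 (3116 to 732140) and 7801 (2016 to 66747). Rec114, known from meiotic recombination, had 70 and 82 UMIs and was 1212-fold and 783-fold higher. Genes known from the interferon response stood among them too, with Rsad2 131-fold and 146-fold higher and Isg15 46.5-fold and 58.4-fold higher. Fam220a was 28.7-fold and 32.0-fold, March2 22.4-fold and 28.6-fold, and Fam210b 13.8-fold and 21.6-fold higher.

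**Figure D3:**
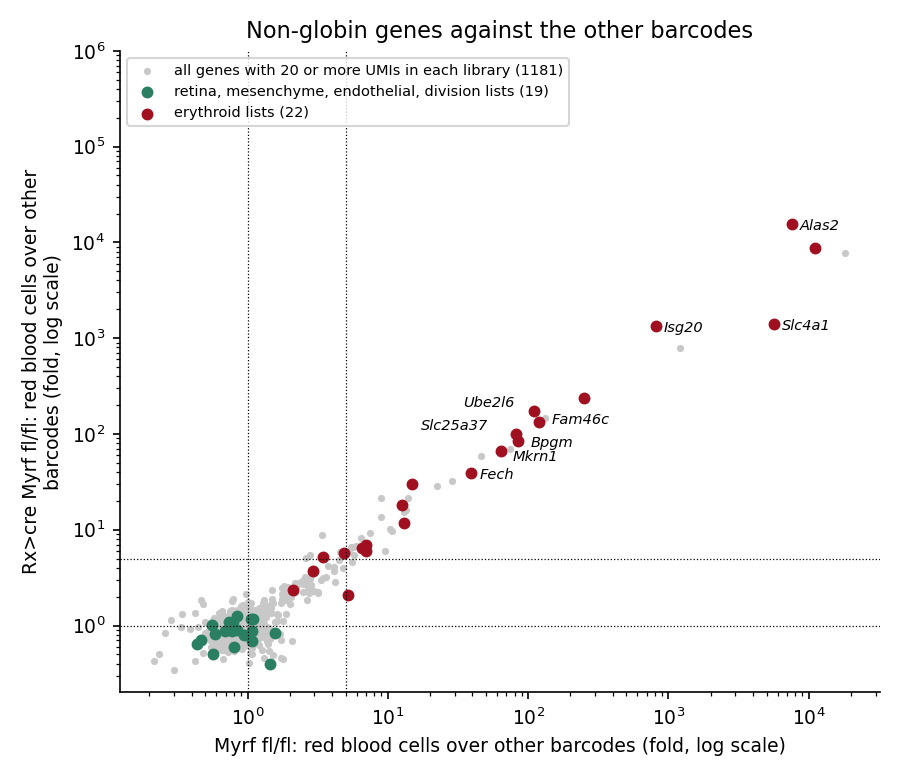
Each point is 1 of 1181 genes with 20 or more UMIs in red blood cells of each library, with its fold over other barcodes in Myrf fl/fl on the x axis and in Rx>cre Myrf fl/fl on the y axis, both log scales per non-globin UMI. Dotted lines stand at 1-fold and 5-fold. Erythroid list genes (22 points) run along the diagonal, with Alas2 near its upper end, while the 19 genes of other lists stay near 1-fold.

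The highest levels among remaining transcripts were not all erythroid. Gm42418, a locus that overlaps ribosomal RNA, was highest in the control with 17229 CPM and stood at 9507 in the mutant. AY036118, a like locus, was at 7020 and 4575. Ftl1 was at 11024 in the control and was the highest of the mutant with 11983. Ubb, a ubiquitin gene, had 7535 and 9238. Oaz1, the inhibitor of polyamine synthesis, stood at 4725 and 5123, 3.77-fold and 4.21-fold above other barcodes. The mitochondrial transcripts mt-Atp6, mt-Cytb, mt-Co1, mt-Co2 and mt-Co3 and the ribosomal protein genes Rpl41, Rps29, Rps24 and Rplp0 also ranked among the 20 highest. Ribosomal protein genes made up 20.1% (control) and 18.6% (mutant) of non-globin UMIs, against 18.9% and 18.1% in other barcodes. Tpt1 was at 8584 and 7726 and Ptma, a chromatin-related gene, at 4880 and 4899 CPM. Malat1, a nuclear RNA of most nucleated cells, was at 6959 and 9737 CPM, or 0.535-fold and 0.735-fold of other barcodes.

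The erythroid lists together were higher where the globin share of the barcode was higher. The erythroid lists gave 1.10% of non-globin UMIs at 20 to 50% globin, 2.82% at 50 to 90% and 18.8% at 90 to 100% in the control. In the mutant these shares were 0.884%, 2.88% and 20.1%. The list of erythroid regulators had no such rise, at 0.0210%, 0.0160% and 0.0237% in the control and 0.0119%, 0.0118% and 0.0163% in the mutant, with overlapping intervals. Alas2 went from 670 to 2244 to 23100 CPM across the bands of the control and from 297 to 2714 to 24288 in the mutant. Bpgm went from 117 to 1122 to 18554 in the control and from 119 to 1816 to 18150 in the mutant. Malat1 stood at 6947, 10596 and 1629 CPM across the bands of the control and at 12164, 11065 and 1338 in the mutant, so it was lowest in the band with the most globin. The bands were cut from globin, so this order is a description with no test.

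After thinning to 300 non-globin UMIs, Alas2 was present in 98.1% of control barcodes (interval 90.1 to 99.95%) and 97.6% of mutant barcodes (87.4 to 99.94%) with 90 to 100% globin. In the 20 to 50% band it was present in 16.1% (7.62 to 28.3%) and 13.3% (1.66 to 40.5%). In other barcodes it was present in 0.0286% and 0.0168%, so the low band lay above that background. Without thinning, Alas2 was present in 98.2%, 41.1% and 0.236% of these control sets and in 97.6%, 37.5% and 0.209% of the mutant sets.

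**Figure D4:**
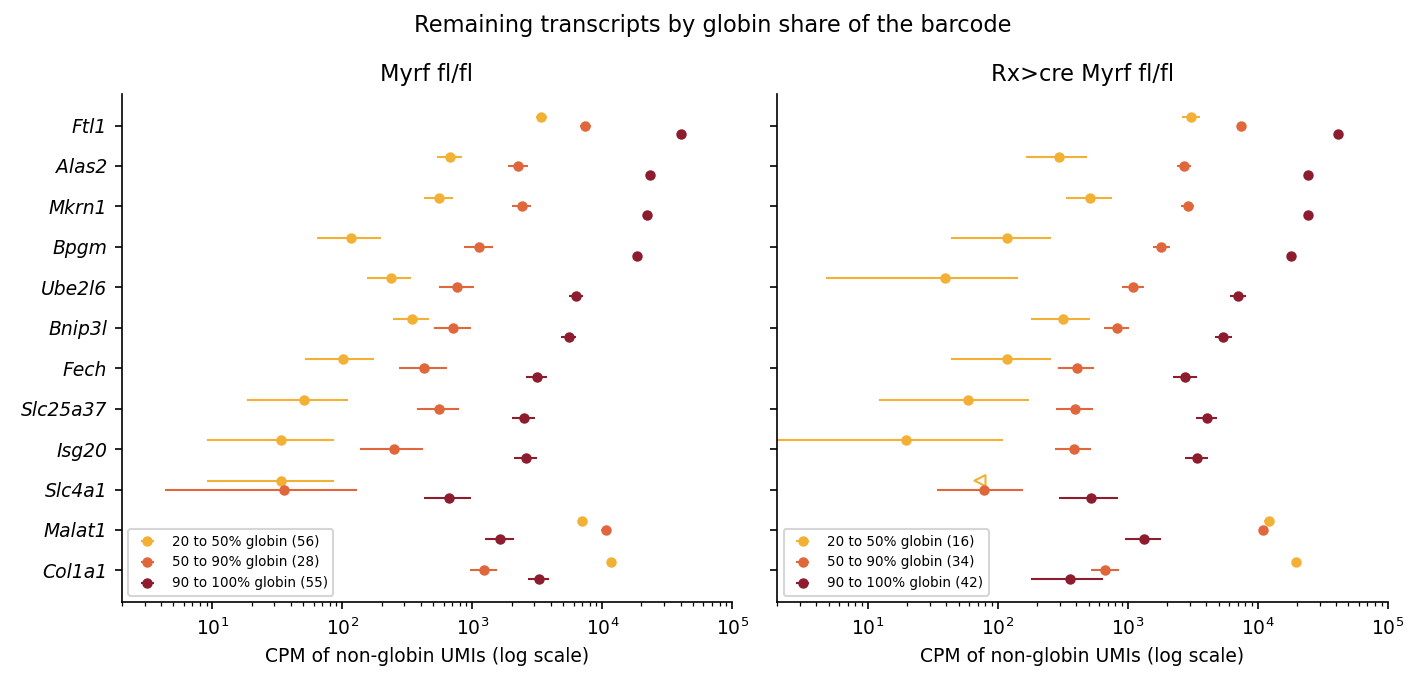
Levels of 12 genes in CPM (log x axis) in red blood cells grouped by globin share, with 56, 28 and 55 barcodes in Myrf fl/fl (left) and 16, 34 and 42 in Rx>cre Myrf fl/fl (right). Points are pooled levels, bars exact 95% Poisson intervals, and open triangles the upper bound of a gene with 0 UMIs. Erythroid genes are highest at 90 to 100% globin in both libraries, while Malat1 is lowest there.

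Markers of other cell types were present in the red blood cells, and their part in the erythroid values was not tested. White blood cell markers summed to 1 control UMI and 4 mutant UMIs, with Ptprc, the common leukocyte antigen, at 0 in both, and platelet markers summed to 4 and 3. Retinal progenitor markers, 10 of 10 detected in both libraries, were 0.325% and 0.461% of non-globin UMIs, against 0.430% and 0.510% in other barcodes, and from the lowest to the highest band of globin they were 0.313%, 0.447% and 0.184% in the control and 0.585%, 0.478% and 0.199% in the mutant. Retinal neuron markers were 0.117% and 0.128%, against 0.168% and 0.196%, with Pou4f2 and Rcvrn at 0. Pigment cell markers were 0.0215% and 0.00603%, against 0.168% and 0.0972%, with Mlana, Mlph and Rpe65 at 0. They were highest at 90 to 100% globin, at 0.0788% from 30 control UMIs and 0.00979% from 3 mutant UMIs.

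Mesenchyme markers were 1.75% (control) and 1.25% (mutant) of non-globin UMIs, against 1.62% and 1.17% in other barcodes. A few barcodes carried much of this, as the medians over barcodes were 0.735% and 0.0359%. From the lowest to the highest band of globin the shares were 2.67%, 0.401% and 0.862% in the control and 4.01%, 0.211% and 0.131% in the mutant. Col1a1, a fibrillar collagen, had 1586 UMIs in 121 of 139 control barcodes and 1076 UMIs in 28 of 92 mutant barcodes. A single barcode held 67.5% of these control UMIs and 92.1% of the mutant ones. Other barcodes were split likewise, with a Col1a1 UMI in 90.9% (control) and 36.2% (mutant). After thinning to 300 non-globin UMIs these shares were 34.3% and 10.8%, against 60.6% and 13.5% of red blood cells. Endothelial markers had 336 control and 41 mutant UMIs, or 0.157% and 0.0225% of non-globin UMIs, against 0.0612% and 0.0474% in other barcodes. Of the 336, 321 lay in the 20 to 50% band. All of Cdh5, Pecam1 and Tie1 in the control came from a single barcode each. The globin of such a barcode and the RNA of another cell type cannot be assigned to 1 cell or to several in these data. Doublet calling marked 0 control and 1 mutant red blood cell. It called as many barcodes as the rate it was given, so these calls cannot tell mixed droplets from single cells here.

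The libraries were compared gene by gene as a ratio of mutant to control. Among 1127 genes with at least 50 UMIs in the red blood cells of both libraries together, 41 (3.64%) were at least 2-fold higher and 59 (5.24%) at least 2-fold lower in the mutant, and the median log2 ratio was 0.098. Of the 22 erythroid list genes measured, 0 were 2-fold higher and 1, Car2, was 2-fold lower (ratio 0.467, 0.344 to 0.626). A single barcode held 49.7% of the control UMIs of Car2, and the ratio in other barcodes was 1.16. The median log2 ratio of these 22 was 0.15. Of 21 measured genes from the other lists, 2 were higher (Cenpf and Lhx2) and 4 lower (Dcn, Lum, Egfl7 and Cldn5). A single barcode held 51.2% of the 41 mutant UMIs of Cenpf, and between 39.6 and 97.4% of the control UMIs of each of the 4.

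Over all red blood cells Alas2 gave a ratio of 1.11 (1.02 to 1.22), Mkrn1 1.21 (1.11 to 1.32) and Slc25a37 1.48 (1.17 to 1.87). At a threshold of 50% globin these turned, to log2 ratios of -0.47, -0.38 and -0.11 (-0.45 to 0.24). At 50 to 90% globin alone the ratios were 1.21 (0.976 to 1.51), 1.21 (0.985 to 1.50) and 0.715 (0.436 to 1.18). Alas2 and Mkrn1 thus gave ratios above 1 in each band over 50% globin, but below 1 in the pool of these bands. At 20 to 50% globin the ratio was 0.443 (0.237 to 0.774) for Alas2, 0.930 (0.567 to 1.48) for Mkrn1 and 1.18 (0.191 to 5.53) for Slc25a37. In that band it was 0.197 (0.0225 to 0.792) for Blvrb, on 2 mutant UMIs, 1.01 (0.319 to 2.80) for Bpgm and 0.901 (0.744 to 1.09) for Ftl1. The pooled direction rests on which barcodes are counted and on how their non-globin UMIs weigh the bands. Within the 90 to 100% band, where the lower quartile of depth was 8960.5 (control) and 12111 UMIs (mutant), Alas2 gave 1.05 (0.952 to 1.16), Bpgm 0.978 (0.874 to 1.09) and Ftl1 1.04 (0.961 to 1.12). These intervals include 1. Slc25a37 gave 1.62 (1.23 to 2.14), Blvrb 1.39 (1.10 to 1.77) and Mkrn1 1.11 (1.01 to 1.23) in that band, above 1 by more than counting error. Blvrb gave 3.05 (1.54 to 6.71) at 50 to 90% globin, but a pooled log2 ratio of 0.016 (-0.29 to 0.33) at a threshold of 50%. In other barcodes the ratio was 1.23 for Slc25a37, 0.709 for Blvrb and 1.15 for Mkrn1. Gm42418 gave 0.596 (0.545 to 0.650) in the 90 to 100% band and was also lower in other barcodes of the mutant, with 0.306% of non-globin UMIs against 0.499% in the control.

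**Figure D5:**
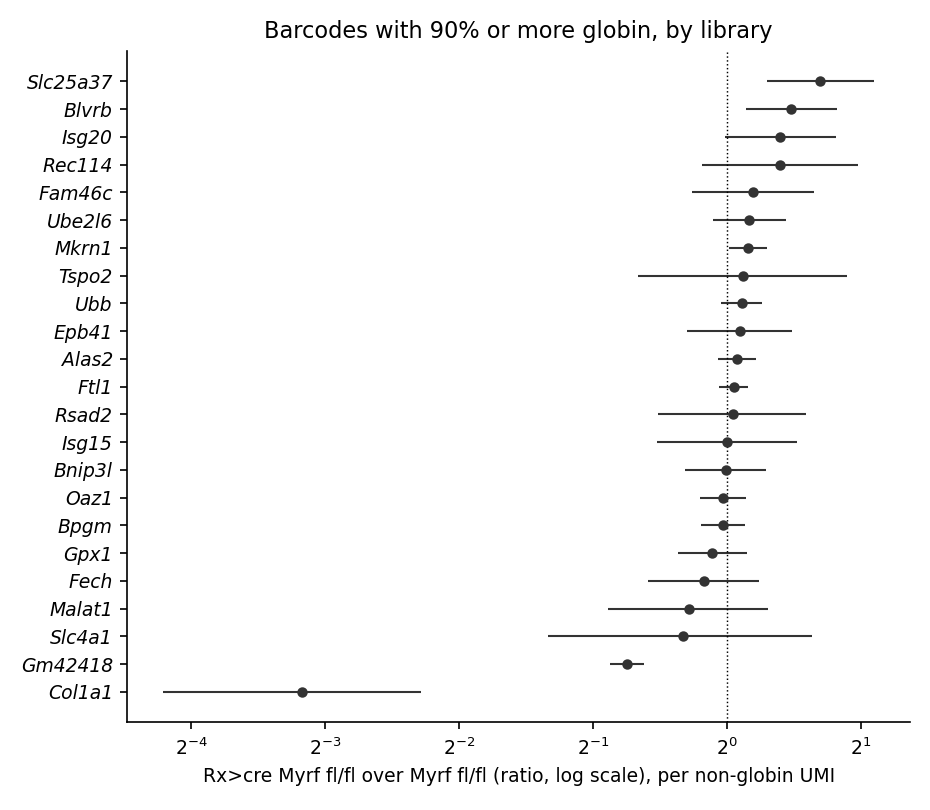
Ratio of Rx>cre Myrf fl/fl to Myrf fl/fl per non-globin UMI (log x axis) in barcodes with 90% or more globin, 42 and 55 barcodes, for 23 genes with at least 20 UMIs. Points are ratios and bars exact 95% intervals that cover counting error only. Most erythroid genes have intervals that include 1, those of Slc25a37, Blvrb and Mkrn1 lie above it, and those of Gm42418 and Col1a1 below it. In other barcodes the ratio was 0.615 for Gm42418 and 0.727 for Col1a1.

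The genes furthest apart between the libraries were not erythroid. Xist, the RNA that coats the inactive X chromosome in females, had 1 UMI in control red blood cells and 259 in 29 mutant ones, a ratio of 303 (53.9 to 12015). In other barcodes it was at 167 CPM in the control and 1685 in the mutant, so it differed in the same direction there. The lens crystallins Cryge, Cryga, Crybb3 and Cryaa had 74, 59, 85 and 61 UMIs in control red blood cells and 0 in mutant ones. With 3 UMIs as the limit of a count of 0, their log2 ratios were at most -4.40, -4.07, -4.60 and -4.12. The exact intervals, which also take in the counting error of the control, reach up to ratios of 0.0598, 0.0755, 0.0519 and 0.0729. They came from 38, 36, 44 and 28 of the 139 control barcodes, and in other barcodes they stood between 128 and 222 CPM in the control and between 0.0534 and 1.05 in the mutant.

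Single barcodes made up much of the other differences. Krt14, Krt5 and Lgals7, genes of surface epithelia, had 83, 61 and 90 control UMIs, of which 98.8%, 98.4% and 100% came from a single barcode, and 0, 0 and 2 mutant UMIs. Tm4sf1, Ramp2 and Igfbp7 had 95.9%, 94.4% and 94.4% of their control UMIs in a single barcode. In the mutant a single barcode held 95.0% of 60 UMIs of 1500015O10Rik, all 39 of Acta2, a smooth muscle actin, and 64.2% of 53 of Rcn3. Fabp7, Gngt2, Cst3, Ebpl, Syt11 and Smarce1 were between 2.71-fold and 5.38-fold higher in the mutant, with 16.2 to 41.6% of their mutant UMIs in the top barcode. In other barcodes the ratio of these 6 genes lay between 0.754 and 1.32. All of these were differences between a pair of libraries without replicate.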

How the data were processed

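The authors dissociated eye cups with papain, made 10x Genomics 3′ libraries and counted UMIs with Cell Ranger against GRCm38 (mm10). The version is 7.1.0 in their methods and 3.1.0 in the matrix headers, and the annotation is not given in the sources used here. What they deposited are whole-number UMI counts, not normalized, of each gene in each barcode that the software called a cell. Values were summed over the barcodes of a library and divided by its non-globin UMIs. The features numbered 31053, of which 30934 matched GENCODE M21 by identifier.

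Barcodes were kept at 200 or more genes and 15% or less mitochondrial UMIs, the limits the study states. The study's doublet limit of 2000 UMIs was an alternative only, since 85 control and 79 mutant red blood cells lay above it. Scrublet in scanpy 1.11.5 called doublets at an expected 0.8% per 1000 barcodes and these were kept in the main setting. Intervals are exact Clopper-Pearson, Poisson or conditional Poisson at the 95% level (scipy 1.17.1). Only the conditional Poisson intervals of ratios were checked, on simulated Poisson counts. These counts lack the spread between barcodes, so the check cannot show how the intervals cover the real data. A count of 0 allows up to 3 counts. PCR copies were collapsed by UMI. No test between genotypes was made, as each had 1 library.

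Red blood cells, gene lists and comparisons were chosen with earlier results of these data known. Genes named were all globins, the list genes with at least 10 UMIs in a library, with absences among the rest, the 20 highest by level, the 20 highest by the lower of both folds over other barcodes (20 UMIs in each library) and the 10 highest and 10 lowest by mutant over control (50 UMIs summed). The list genes were summarised by counts where many fell under this rule. List genes under 10 UMIs were named after their values were seen. Some genes that this rule takes in are not reported here. Promoters came from RefSeq (GRCm38.p6), which held no entry used here for Hbb-bh1. Promoter windows, and coding and 3′ untranslated parts, were aligned globally. Thinning drew 300 non-globin UMIs per barcode without replacement. The alternatives were a globin threshold of 50%, no gene minimum, a mitochondrial limit of 5%, called doublets left out, at most 2000 UMIs, medians over barcodes, and thinning.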

Additional observations from a re-analysis of the deposited data

How the results depend on the processing

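With 1 library per genotype, limits of depth are those of counting within each library, and ratios that rest on few UMIs have wide intervals. No paired analysis was possible because each genotype had a single library. The results followed under the alternatives were the share of red blood cells, the alpha share, the Hbb-bs share of beta globin, the embryonic share, the median depth and the erythroid share of non-globin UMIs, in each library. Of their values, 34 stayed within the counting interval of the main value and 32 moved outside it. Leaving out called doublets removed 0 control and 1 mutant red blood cell, so the results other than the share were nearly the same by construction and nothing on their stability follows. The share itself, whose denominator lost the called barcodes, was 1.11% and 0.839%. The embryonic share rests on 0 control UMIs and 1 mutant UMI, and most alternatives only remove barcodes, so they bear little on it.

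At a globin threshold of 50%, the control had a share of 0.587%, an alpha share of 29.3%, an Hbb-bs share of 81.6%, a median of 11315 UMIs and an erythroid share of 9.28%. The mutant had an Hbb-bs share of 79.6% and a pooled erythroid share of 6.88%, now below the control. Within the bands it was not below, at 2.88% against 2.82% in the control (50 to 90% globin) and 20.1% against 18.8% (90 to 100%). With no gene minimum, the shares of red blood cells were 1.24% and 1.16% in control and mutant, the alpha shares 29.6% and 29.2%, the Hbb-bs shares 82.9% and 81.8%, and the mutant had a median of 6237 UMIs and an erythroid share of 5.34%. A mitochondrial limit of 5% gave the control a share of 1.17% and an erythroid share of 4.91%.

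With at most 2000 UMIs, control and mutant had shares of 2.00% and 1.60%, alpha shares of 30.7% and 34.5%, Hbb-bs shares of 93.7% and 94.2%, medians of 1027.5 and 1195 UMIs and erythroid shares of 1.17% and 1.82%. That limit removed 85 of 139 and 79 of 92 red blood cells, mostly the globin-rich ones. As a median over barcodes, the alpha share of the control was 29.5%, and the Hbb-bs shares were 91.9% and 84.4%. Thinned to 300 non-globin UMIs, the erythroid shares were 8.35% and 11.2%, since each barcode then weighs the same.

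The mutant over control ratios were followed for 31 genes, Gm42418, Ftl1, Car2, Col1a1, Cenpf and Lhx2 not among them. They stayed within their counting intervals (bounds within 1 on the log2 scale) with no gene minimum, at 5% mitochondrial UMIs and without called doublets. Fech, at a log2 ratio of -0.0052, was at 0.011 without called doublets and at 2.34 with at most 2000 UMIs (4 UMIs). Of ratios beyond counting error over all red blood cells, at 50% globin 7 turned: the log2 ratio was -0.47 for Alas2, -0.54 for Bpgm, 1.10 for Igfbp7 (4 UMIs), -0.13 for Isg20, -0.38 for Mkrn1, -0.11 for Slc25a37 and -0.27 for Ube2l6. The intervals of Igfbp7 (-2.54 to 6.81), Isg20 (-0.50 to 0.24) and Slc25a37 (-0.45 to 0.24) then include 0. These are pooled ratios, which weigh the bands by their non-globin UMIs. At 50 to 90% and 90 to 100% globin the ratio was 1.21 and 1.05 for Alas2, 1.21 and 1.11 for Mkrn1 and 1.44 and 1.12 for Ube2l6. It was 1.54 and 1.32 for Isg20, 1.62 and 0.978 for Bpgm and 0.715 and 1.62 for Slc25a37. At 20 to 50% globin, which that threshold leaves out, the ratio was 0.443 for Alas2, 0.930 for Mkrn1 and 0.169 for Ube2l6. There it was 0.590 for Isg20, 1.01 for Bpgm and 1.18 for Slc25a37. With at most 2000 UMIs, the log2 ratio was -0.47 for Bpgm, -1.12 for Cst3, 2.34 for Igfbp7 and -0.83 for Mkrn1, on 2 to 24 UMIs each. The bound for Cryaa was 0.46. Causes of these turns beyond the weighing of bands were not tested.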
